A study of Monascus purpureus with 6 samples.

Results

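RINO2 (gene-MAP00_003136 in the deposited tables) is the gene of Monascus purpureus named for inositol-3-phosphate synthase, and it is 1 of the 9836 genes counted in these mycelia. It was selected on its measured counts, which were far higher in metal-ion mycelia than in control mycelia, so its levels in those groups and the size of its rise are described here without a test. Monascus purpureus is a filamentous fungus grown for red pigments and ethanol, and the study sought a balance of zinc and magnesium salts that favours both products. RNA was sequenced from 3 metal-ion and 3 control libraries of wild-type strain MP2022, each from mycelia at day 1. Metal-ion mycelia were labelled as treated with ZnSO4·2H2O at 0.0 g/L and MgSO4·2H2O at 2.5 g/L. For control mycelia the labels mention ZnSO4·2H2O at 2.0 g/L and MgSO4·2H2O at 1.0 g/L with the word untreated, so whether these salts were in the control medium cannot be told. The labels do not state whether replicates were separate cultures, and the p-values given for other genes therefore reflect only how far these libraries differ, for which the reason may be technical.

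Inositol-3-phosphate synthase turns glucose 6-phosphate into inositol 3-phosphate with the help of the cofactor NAD, and this is the first committed step by which cells make inositol. Inositol monophosphatase, an enzyme that needs magnesium, then removes the phosphate, and free inositol is built into phosphatidylinositol, inositol sphingolipids, glycosylphosphatidylinositol (GPI) anchors and inositol phosphates. In Saccharomyces cerevisiae the matching gene, INO1, is known for strong regulation: it is repressed when inositol is supplied and activated by the pair of proteins Ino2 and Ino4 when it is scarce. The symbol RINO is the one used for such genes in rice. None of the other symbols searched for an inositol synthase (INO1, MIPS and ISYNA) was matched, and no spore or fruiting body marker was, with 0 of 14 symbols found, so the purity of the mycelia could not be checked.

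RINO2 was carried by 170405, 171424 and 174846 counts in metal-ion replicates 1, 2 and 3, against 29879, 31788 and 29451 counts in control replicates 1, 2 and 3. The libraries held 35314601 to 38927910 counts in metal-ion mycelia and 33638067 to 36537672 in control. The lowest metal-ion library was thus far above the highest control library before any scaling, and the groups did not overlap. In RNA from whole mycelia, more cells with the mRNA and more of it per cell cannot be told apart.

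As a share of all counts, RINO2 took 0.482%, 0.440% and 0.495% in metal-ion replicates 1, 2 and 3. It took 0.0888%, 0.0870% and 0.0874% in control replicates 1, 2 and 3. The Wilson 95% intervals, which cover counting error only, ran from 0.480 to 0.484%, 0.438 to 0.442% and 0.493 to 0.497% in the metal-ion libraries and from 0.0860 to 0.0898% over the control libraries. Counting error was therefore much smaller than the gap between the groups, and smaller than the gap between metal-ion replicate 2 and the other metal-ion libraries.

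In CPM, counts scaled to the library total and, by TMM, to its composition, RINO2 stood at 4352, 4486 and 4809 CPM in metal-ion replicates 1, 2 and 3 and at 912, 915 and 907 CPM in control replicates 1, 2 and 3. The means were 4549 ± 235 CPM in metal-ion and 911 ± 4.08 CPM in control mycelia (SD, n = 3 each), a log2 fold change of 2.32 ± 0.12 (SE). Over the 9 pairings of a metal-ion with a control library, the ratio ran from 4.76 to 5.30. Leaving out any one of the 6 libraries moved the log2 fold change only between 2.28 and 2.34. The order within metal-ion mycelia depended on the scaling: replicate 1 was lowest with TMM, and replicate 2 was lowest as a plain share of counts. Scaling by totals alone gave a log2 fold change of 2.43 and also moved the median of all tested genes to 0.14, against 0.03 with TMM.

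On the length-adjusted FPKM scale, the deposited values for RINO2 were 2249, 2035 and 2294 FPKM in metal-ion replicates 1, 2 and 3 and 409, 403 and 406 FPKM in control replicates 1, 2 and 3. The ratio of the means, 2193 ± 139 FPKM in metal-ion over 406 ± 2.91 FPKM in control mycelia (SD, n = 3 each), was 5.40.

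**Figure D1:**
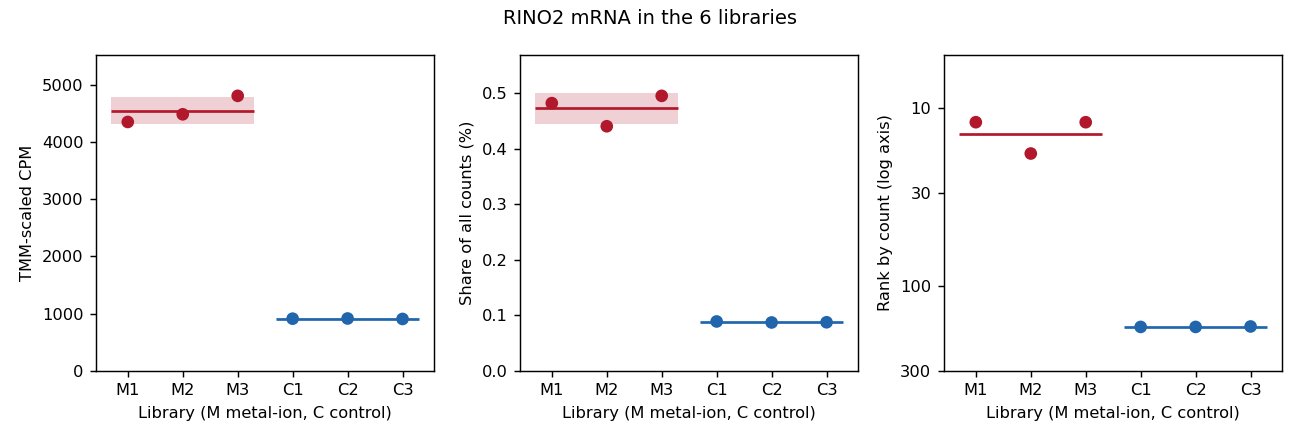
RINO2 in each library (M1 to M3 metal-ion, C1 to C3 control) as TMM-scaled CPM, as a share of all counts in percent and as a rank among 9836 genes on a log axis. Points are libraries, lines are group means and bands are the SD over 3 libraries (no band for the rank); the metal-ion libraries sit at 4352 to 4809 CPM and the control libraries at 907 to 915 CPM.

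RINO2 was already an abundant mRNA in control mycelia and was among the 18 most abundant in each metal-ion library. By count it ranked 12, 18 and 12 of 9836 genes in metal-ion replicates 1, 2 and 3, against 170, 170 and 169 in control replicates 1, 2 and 3. By FPKM, which allows genes of different length to be set side by side, it ranked 25, 37 and 25 in the metal-ion libraries, against 262, 271 and 267 in the control libraries. In each of the 6 libraries it stood nearer the top by count than by FPKM.

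The genes next to RINO2 in rank show the company it keeps in each group. In mean share of counts over metal-ion mycelia it stood at 0.472 ± 0.0286% (SD, n = 3), just below HSP70 at 0.491%, named for a heat shock chaperone, and just above MAP00_002565 at 0.447%. In control mycelia it stood at 0.0877 ± 0.000964% (SD, n = 3), between MAP00_004034 at 0.0881% and RPS20, named for a protein of the small ribosomal subunit, at 0.0869%. These neighbours in rank differ from RINO2 by less than its own SD in metal-ion mycelia, so their order there is not fixed. The same held for both neighbours in control mycelia.

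In share of counts, RINO2 gained more than any other of the 9836 genes. Its mean share was 0.385 percentage points higher in metal-ion than in control mycelia, ahead of MET26, named for methionine synthase, with a gain of 0.335 points, and it kept the largest gain without any one of the 6 libraries. The third largest gain, 0.169 points, belonged to MAP00_008391. RINO2 alone made up 3.90% of the summed gains of the genes whose mean share was higher in metal-ion mycelia.

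Set against other mRNAs of the same library, a measure that needs no scaling, the rise of RINO2 depended on the partner. Per count of ADH1, the alcohol dehydrogenase gene, there were 0.688, 0.613 and 0.585 counts of RINO2 in metal-ion replicates 1, 2 and 3, against 0.0982, 0.0916 and 0.0976 in control replicates 1, 2 and 3. Per count of TEF1, named for a translation elongation factor, there were 0.317 ± 0.0265 in metal-ion and 0.0487 ± 0.00152 in control mycelia (SD, n = 3 each). ADH1, TEF1 and GPD1 were themselves among the 5 genes that lost most in mean share of counts, with differences of -0.162, -0.312 and -0.274 percentage points, though none of them passed in edgeR (log2 fold changes of -0.39, -0.38 and -0.23). The ratio of group means was 6.56 against ADH1, 6.52 against TEF1, 5.86 against GPD1 and 5.15 against FAS1, the fatty acid synthase gene. These partners were picked as abundant genes with their values known, and with each of them the lowest metal-ion value was more than 4 times the highest control value, the narrowest being 4.27 times with FAS1.

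Among genes that were as abundant as RINO2 in control mycelia, none rose as much. Like abundance was taken as a control mean within 2-fold of that of RINO2, from 456 to 1822 CPM, which 300 other tested genes met. Their log2 fold changes ran from -1.72 to 1.47, with a median of -0.26, a 5th percentile of -0.71 and a 95th percentile of 0.44. The highest of them, MET26, lay 0.85 below RINO2 on the log2 scale, and 3 of the 300 had a log2 fold change of at least 1.

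Of the 300 genes, 17 (5.67%) were called higher and 76 (25.3%) lower at an adjusted p under 0.05 (edgeR quasi-likelihood test, Benjamini-Hochberg). Over all 9048 tested genes 6.66% were called higher, 5.32% lower and 12% in either direction. With all 6 libraries, the share called higher at this level was near that of all genes and the share called lower was above it. With like abundance taken by control mean FPKM, within 2-fold, 5.56% of 342 genes were called higher and 11.7% lower. For the 300 genes, the excess of those called lower did not hold without metal-ion replicate 1 or any control replicate. In the fits without any one library, the median log2 fold change of these genes was -0.35 to -0.18, against 0.01 to 0.03 over all tested genes. Of the 76 called lower, 41 carried a ribosomal protein symbol, out of 47 such genes in the set, and the median log2 fold change of the 253 genes without such a symbol was -0.18. Only 121 of the 300 genes have a symbol other than the locus tag, so the 253 may include further ribosomal protein genes. The number called higher was 12 and 7 without metal-ion replicate 1 or 3, 5, 5 and 6 without control replicate 1, 2 or 3, and 34 without metal-ion replicate 2. The number called lower was 3 (1.00%, against 1.52% of all tested genes in the same fit) without metal-ion replicate 1 and 5 (1.67% against 1.33%) without metal-ion replicate 3. It was 2 (0.676% against 1.04%), 1 (0.336% against 1.03%) and 4 (1.37% against 1.41%) without control replicate 1, 2 or 3, so that in these 3 fits and in the one without metal-ion replicate 1 the share called lower was below that of all genes. Without metal-ion replicate 2 it was 180 of 300, against 16.5% of all tested genes. In each of these fits 0 of the genes in the window, recomputed from the libraries kept, had a log2 fold change as large as that of RINO2.

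**Figure D2:**
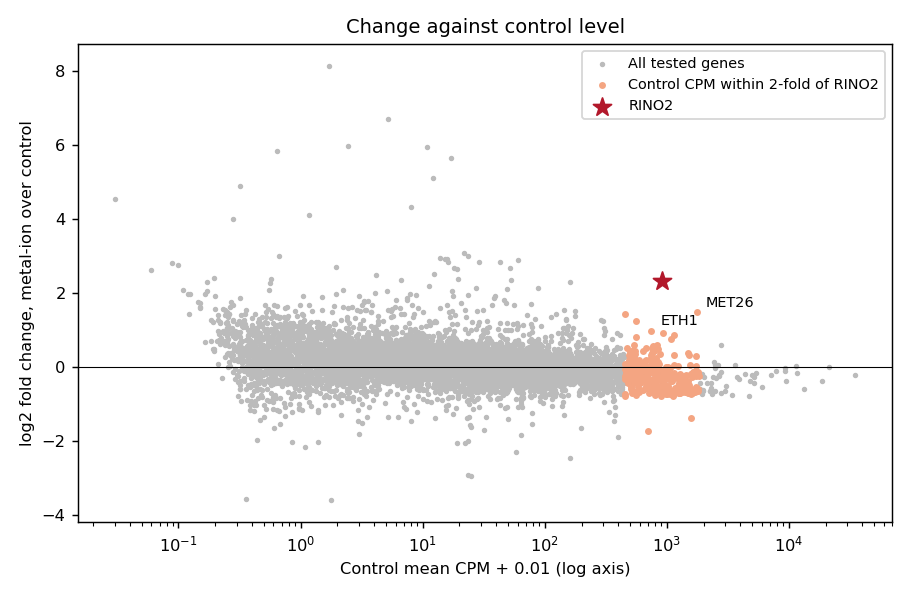
Log2 fold change, metal-ion over control, against control mean CPM (with 0.01 added, log axis) for 9048 tested genes in grey, for the 300 genes with a control mean within 2-fold of RINO2 in orange, and for RINO2 as a star. RINO2 at 2.32 lies above the 300, of which MET26 is highest at 1.47.

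The genes of like abundance that were called higher with the largest rises were MET26, MAP00_001526, MAP00_005247, ETH1 and MAP00_007591. MET26 stood at 4189, 5772 and 4698 CPM in metal-ion replicates 1, 2 and 3, against 1783, 1613 and 1877 CPM in control replicates 1, 2 and 3 (log2 fold change 1.47 ± 0.15, edgeR adjusted p = 0.000121). It was thus more abundant than RINO2 in control mycelia and, in metal-ion mycelia, above it in replicate 2 and below it in replicates 1 and 3. MAP00_001526 averaged 1224 ± 175 CPM in metal-ion and 456 ± 64.7 CPM in control mycelia (SD, n = 3 each; log2 fold change 1.43 ± 0.15, edgeR adjusted p = 0.000168). MAP00_005247 averaged 1328 ± 195 CPM in metal-ion and 558 ± 9.23 CPM in control mycelia (SD, n = 3 each; log2 fold change 1.25 ± 0.13, edgeR adjusted p = 0.000148).

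ETH1, a symbol used in Neurospora for the enzyme that makes S-adenosylmethionine, averaged 1476 ± 380 CPM in metal-ion and 748 ± 19.98 CPM in control mycelia (log2 fold change 0.98 ± 0.17, edgeR adjusted p = 0.00472). MAP00_007591 had a log2 fold change of 0.91 ± 0.19 (edgeR adjusted p = 0.0137) and lost its call when any library but metal-ion replicate 2 was left out (highest adjusted p = 0.0833). The largest falls in the set were those of MAP00_007298, MAP00_007783 and RPS20, at -1.72, -1.38 and -0.80 on the log2 scale (adjusted p = 0.0200, 0.0141 and 0.0306 in edgeR). RPS20, next to RINO2 in control rank, averaged 519 ± 179 CPM in metal-ion and 902 ± 60.9 CPM in control mycelia. Each of these 3 lost its call when metal-ion replicate 1 or 3 or control replicate 1 or 2 was left out, and MAP00_007298 and RPS20 also when control replicate 3 was.

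Across the whole range of levels, RINO2 was 37th of 9048 tested genes by log2 fold change. The 36 genes above it were scarce in control mycelia, with a median of 9.49 CPM and a highest control mean of 60.8 CPM, and 33 of them were called higher. Only 3 of the 36 had a control mean of at least 50 CPM: MAP00_007456, MAP00_007453 and MAP00_007470. MAP00_007456 averaged 452 ± 62.6 CPM in metal-ion and 60.8 ± 13.8 CPM in control mycelia (SD, n = 3 each). The most abundant of the 36 in metal-ion mycelia was MAP00_002307, at 842 ± 141 CPM, and RINO2 stood at 5.40 times that level. Summed over the 36 genes, the share of counts was 0.644% in metal-ion and 0.0470% in control mycelia, so RINO2 at 0.472% in metal-ion mycelia took less than these 36 together.

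Of the 1887 tested genes with a control mean of at least 100 CPM, RINO2 and MAP00_007458 had the largest log2 fold changes, 2.32 ± 0.12 and 2.29 ± 0.17 (SE), and their order was not fixed. Without metal-ion replicate 1 they were 2.34 and 2.40, and without control replicate 1 they were 2.32 and 2.42, so that MAP00_007458, the highest of 1576 other genes from 100 to 500 CPM, came first in those fits. Among 158 other genes from 500 to 1000 CPM the highest was 1.25, and among 152 genes of at least 1000 CPM it was 1.47. Of 24 other genes whose metal-ion mean was within 2-fold of that of RINO2, 0 had a log2 fold change as large, and the highest was again MET26.

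RINO2 varied little between the libraries of a group. The SD of log2(CPM + 1) was 0.0738 over the metal-ion libraries and 0.0065 over the control libraries. Over the 300 genes of like control level, the median SD was 0.212 in metal-ion and 0.0793 in control mycelia. The SD was below that of RINO2 for 27 of the 300 in metal-ion mycelia and for 1 of the 300 in control mycelia. Counting error alone would give 0.0035 in metal-ion and 0.0083 in control mycelia, so the control libraries lay closer together than counting error would place them on average. With plain shares in place of TMM scaling, the SD of RINO2 was 0.0885 in metal-ion and 0.0158 in control mycelia, and 74 and 11 of the 300 genes lay below it.

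**Figure D3:**
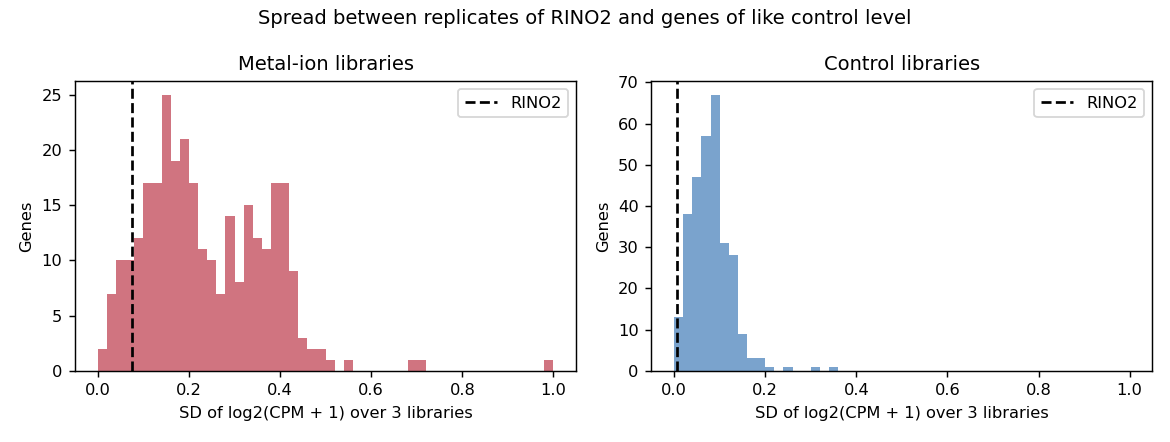
Histograms of the SD of log2(CPM + 1) over 3 libraries for the 300 genes with a control mean within 2-fold of RINO2, in metal-ion libraries on the left and control libraries on the right, with the number of genes on the vertical axis. The dashed lines mark RINO2, at 0.0738 in metal-ion and 0.0065 in control libraries.

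Metal-ion replicate 2 stood apart from the other metal-ion libraries across the genome, with a first principal component score of 8.91, against 24.7 and 25.6 for metal-ion replicates 1 and 3 and -22.6 to -17.6 for control libraries. For RINO2 it did not lie towards control when scaled by TMM. As a share of counts and in FPKM it was the lowest metal-ion library, at 0.440% and 2035 FPKM. With TMM it covered 0.988 of the distance, on the log2 scale, between the control mean and the mean of metal-ion replicates 1 and 3. The median of this share was 0.982, with quartiles of 0.817 and 1.08, over 94 other genes called higher by at least 2-fold with a control mean of at least 10 CPM. RINO2 was thus close to the middle of those genes in this respect. They were called with metal-ion replicate 2 in the fit, which favours genes for which that library lies with the other metal-ion libraries. The comparison therefore cannot tell whether RINO2 is typical of all genes that rose. Without metal-ion replicate 2 its log2 fold change was 2.32.

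The genes beside RINO2 had log2 fold changes of -0.46 to 0.46, with a median of 0.15, over the 5 annotated genes on either side. Of these 10 genes, 0 were called changed (edgeR, adjusted p under 0.05), which is near the 12% called over all tested genes. Before adjustment of p, 6 of the 10 were under 0.05, against 29% of all tested genes, and 6 of 10 log2 fold changes were above 0, against 53.3%. DESeq2 called 1 of the 10, MAP00_003141, against 18.1% of its tested genes, and limma on log2(FPKM + 1) called 1, FDH1, against 12.3%. Scaling by total counts and leaving out metal-ion replicate 2 gave 3 calls each, against 13.3% and 31% of tested genes.

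FDH1 (MAP00_003135), named for formate dehydrogenase, is next to RINO2 in the annotation, and neither gene model overlaps a neighbour. FDH1 stood at 207, 211 and 233 CPM in metal-ion replicates 1, 2 and 3, against 191, 188 and 185 CPM in control replicates 1, 2 and 3. The groups did not overlap, as in 33.3% of tested genes, but FDH1, with a log2 fold change of 0.21 ± 0.09, did not pass in edgeR (adjusted p = 0.167). It passed when scaled by total counts alone. Per count of FDH1 there were 21.0, 21.3 and 20.6 counts of RINO2 in metal-ion replicates 1, 2 and 3, against 4.79, 4.87 and 4.89 in control replicates 1, 2 and 3. Per length, on the FPKM scale, RINO2 stood 11.8 ± 0.186 times as high as FDH1 in metal-ion and 2.72 ± 0.0310 times as high in control mycelia (SD, n = 3 each).

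On the other side, MAP00_003137 averaged 124 ± 18.4 CPM in metal-ion and 126 ± 11.8 CPM in control mycelia (SD, n = 3 each; log2 fold change -0.02 ± 0.12, edgeR adjusted p = 0.916). MAP00_003138, the gene after it, averaged 20.6 ± 2.74 CPM in metal-ion and 15.9 ± 0.328 CPM in control mycelia (log2 fold change 0.37 ± 0.13, edgeR adjusted p = 0.0938). MAP00_003134, beyond FDH1, averaged 30.9 ± 8.04 CPM in metal-ion and 42.3 ± 4.73 CPM in control mycelia (log2 fold change -0.46 ± 0.17, edgeR adjusted p = 0.114). None of these 3 passed with TMM scaling and all 6 libraries. MAP00_003138 passed when scaled by total counts alone, and MAP00_003134 passed without metal-ion replicate 2.

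**Figure D4:**
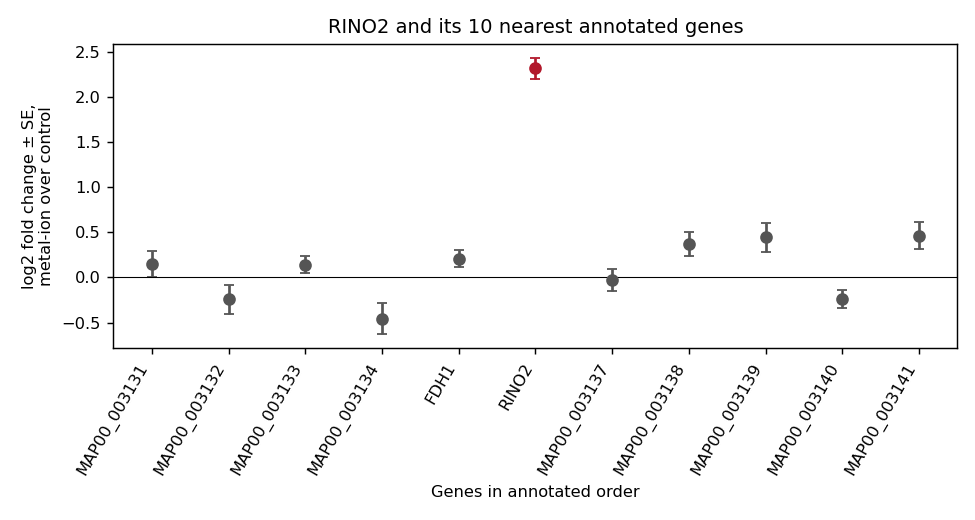
Log2 fold change, metal-ion over control, with its SE for RINO2 (red) and the 5 annotated genes on either side (grey), in annotated order. RINO2 lies at 2.32, and the other 10 genes between -0.46 and 0.46.

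For other genes of inositol and phospholipid metabolism, a list of 108 symbols, from inositol synthesis and transport to phosphoinositides, sphingolipids and GPI anchors, matched RINO2 and 12 further genes, each of which was tested. Of the 12, 1 rose and 0 fell (edgeR, adjusted p under 0.05), against 6.66% of all tested genes called higher and 5.32% lower, and 2 had an unadjusted p under 0.05, as did 29% of all tested genes. With so few genes, these counts are near the background and are no result about the list. The median log2 fold change of the 12 was 0.03, the same as over all tested genes, and the range was -0.31 to 0.48. No symbol for inositol monophosphatase, inositol transport, inositol breakdown, phosphatidylinositol synthase, phosphoinositide kinases or inositol phosphate kinases was matched, so those steps were not analysed here.

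The gene that rose was CHO2 (MAP00_000740), named for the methyltransferase that starts the conversion of phosphatidylethanolamine to phosphatidylcholine with S-adenosylmethionine as methyl donor. It stood at 474, 512 and 601 CPM in metal-ion replicates 1, 2 and 3, against 378, 342 and 421 CPM in control replicates 1, 2 and 3 (log2 fold change 0.48 ± 0.13, edgeR adjusted p = 0.0361). The groups did not overlap, as in 33.3% of tested genes, but the lowest metal-ion library was close to the highest control library. CHO2 lost its call when metal-ion replicate 3 or any control replicate was left out (highest adjusted p = 0.171).

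The regulator on the list, INO80, was named in yeast for mutants that need inositol and encodes the motor of a chromatin remodelling complex. INO80 averaged 46.1 ± 2.91 CPM in metal-ion and 45.8 ± 4.69 CPM in control mycelia (SD, n = 3 each; log2 fold change 0.01 ± 0.11, edgeR adjusted p = 0.961). CKI1 averaged 347 ± 12.8 CPM in metal-ion and 365 ± 9.54 CPM in control mycelia (log2 fold change -0.07 ± 0.09, edgeR adjusted p = 0.661). Of the sphingolipid genes, ORM1, named for a regulator of the first enzyme of sphingolipid synthesis, had a log2 fold change of 0.13 ± 0.10, and TSC10, named for a reductase of the same pathway, of -0.31 ± 0.12 (edgeR adjusted p = 0.410 and 0.109).

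Of 7 GPI anchor genes, 0 passed in edgeR, against 12% of all tested genes, and with so few genes this count is no result about them. GWT1, named for the acyltransferase that modifies the inositol of the anchor, was the most abundant of them, at 94.3 ± 9.33 CPM in metal-ion and 110 ± 8.15 CPM in control mycelia (SD, n = 3 each; log2 fold change -0.22 ± 0.10, edgeR adjusted p = 0.179), and it passed without metal-ion replicate 2. BST1, named for the enzyme that takes this acyl group off again, had a log2 fold change of 0.04 ± 0.10 (edgeR adjusted p = 0.819), and GPI3, named for the catalytic subunit of the first step, of 0.16 ± 0.10 (edgeR adjusted p = 0.294). The models of BST1 and GPI3 overlap that of a neighbour, and with libraries that do not mark strand the reads of overlapping genes cannot be told apart.

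A further 8 genes of lipid transfer, phospholipid breakdown and related steps were added from the symbols in the annotation. Of these, 0 rose and 2 fell, against 6.66% of all tested genes called higher and 5.32% lower, and 5 of 8 had an unadjusted p under 0.05, against 29%. SFH5, named for a phosphatidylinositol transfer protein, averaged 101 ± 6.45 CPM in metal-ion and 139 ± 9.15 CPM in control mycelia (SD, n = 3 each; log2 fold change -0.45 ± 0.09, edgeR adjusted p = 0.0141). DPM1, named for the synthase of the mannose donor used for GPI anchors, averaged 76.7 ± 8.84 CPM in metal-ion and 106 ± 3.80 CPM in control mycelia (log2 fold change -0.47 ± 0.10, edgeR adjusted p = 0.0163). SFH5 lost its call when metal-ion replicate 1 or control replicate 1 or 3 was left out, and DPM1 when any library but metal-ion replicate 2 was left out. PLB1, named for phospholipase B, had a log2 fold change of 0.36 ± 0.11 and did not pass (edgeR adjusted p = 0.0536), and SEC14, named for a phosphatidylinositol and phosphatidylcholine transfer protein, of -0.20 ± 0.11 (edgeR adjusted p = 0.253). PLB1 passed in 7 of 15 alternatives, among them DESeq2.

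**Figure D5:**
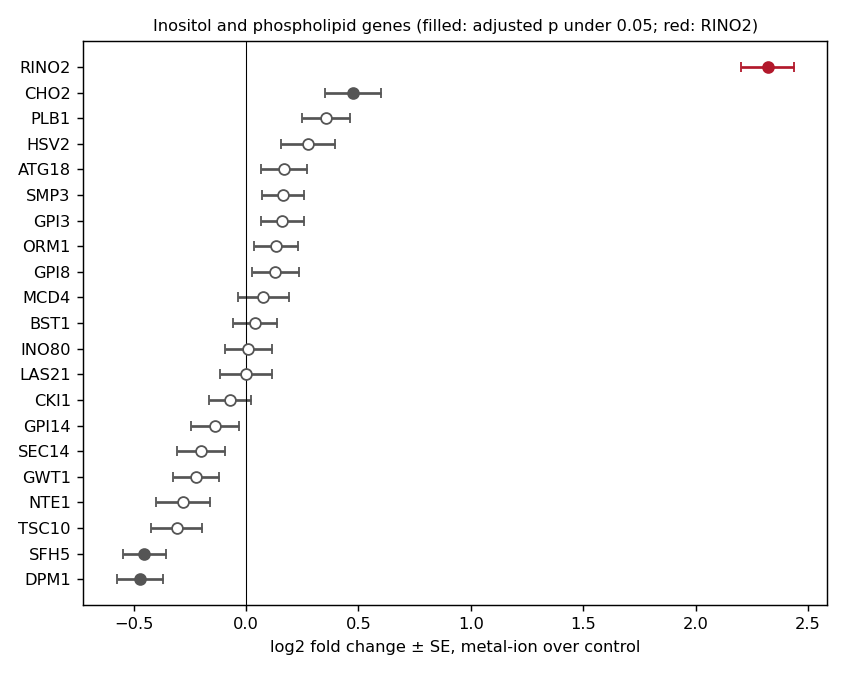
Log2 fold change, metal-ion over control, with its SE for RINO2 (red) and 20 other genes of inositol and phospholipid metabolism; filled points had an adjusted p under 0.05 in edgeR. RINO2 lies at 2.32, CHO2 at 0.48 and DPM1, the lowest, at -0.47.

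Around glucose 6-phosphate, the substrate of inositol-3-phosphate synthase, 20 symbols were searched and 2 were matched. GSY1, named for glycogen synthase, averaged 231 ± 9.18 CPM in metal-ion and 236 ± 31.8 CPM in control mycelia (SD, n = 3 each; log2 fold change -0.03 ± 0.11, edgeR adjusted p = 0.880). GFA1, named for the enzyme that draws fructose 6-phosphate into chitin precursors, averaged 2239 ± 134 CPM in metal-ion and 2652 ± 33.5 CPM in control mycelia (log2 fold change -0.24 ± 0.11, edgeR adjusted p = 0.176). Of these, 0 passed in edgeR and 0 were under 0.05 before adjustment of p, against 12% and 29% of all tested genes, while DESeq2 called 1, GFA1, against 18.1%. The model of GFA1 overlaps that of a neighbour. Per length, RINO2 was the higher in metal-ion mycelia, at 2193 ± 139 FPKM against 677 ± 7.89 FPKM for GFA1, while GFA1 was the higher in control mycelia, at 743 ± 9.51 FPKM against 406 ± 2.91 FPKM for RINO2 (SD, n = 3 each).

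The 5 genes whose profile over the 6 libraries was most like that of RINO2 were less abundant than it in each group. Likeness was measured as the root mean square difference of log2(CPM + 1), after centring each gene on its own mean, over the 3392 other genes that averaged at least 50 CPM. The nearest were MAP00_008551, MAP00_005521, MAP00_007461, MAP00_007458 and MAP00_001229, with differences of 0.155, 0.160, 0.170, 0.181 and 0.184. This measure uses the contrast by which RINO2 was chosen and is given as a description. By Pearson correlation over the 6 libraries, 36 of the 3392 genes had an r above 0.99 with RINO2, and 228 had an r above 0.9. MAP00_008551 stood at 79.3, 113 and 110 CPM in metal-ion replicates 1, 2 and 3, against 21.2, 19.7 and 17.5 CPM in control replicates 1, 2 and 3, a log2 fold change of 2.37 ± 0.15. MAP00_005521 averaged 389 ± 67.7 CPM in metal-ion and 88.5 ± 7.46 CPM in control mycelia (SD, n = 3 each). MAP00_007458 was the most abundant of the 5, at 787 ± 153 CPM in metal-ion and 161 ± 26.5 CPM in control mycelia. The 5 log2 fold changes ran from 2.10 to 2.64, on either side of that of RINO2.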

How the data were processed

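Per the labels' protocols, mRNA was enriched from TRIzol-extracted RNA, made into cDNA with a NEBNext Ultra kit, which keeps no strand information, and sequenced on an Illumina HiSeq instrument. TopHat2 is named, without a version, in the submitters' processing notes. The counter, genome build and annotation used are not given in the sources used here. Deposited by the authors were whole-number counts per gene and FPKM values, normalised for length and depth, for 9836 genes in 6 libraries, of which 9151 are MAP00 locus tags and 685 are genes the authors added. All 9151 tags were found in the RefSeq table for ASM2599979v1, strain KUPM5, used only for symbols (882 genes), gene order and overlaps; coordinates are left out, as the build behind the counts is unnamed.

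Counts were fitted by quasi-likelihood in edgeR 4.0.16 (R 4.3.3), with TMM scaling and the default filter (9048 genes kept), two-sided, Benjamini-Hochberg adjusted over the genes tested; calls were made at an adjusted p under 0.05. The SE is the fold change divided by the square root of its F statistic. The code was tested on simulated data. Counts of replicates differed beyond sampling noise, at a chi-square divided by its degrees of freedom of 36.7 to 118 for metal-ion pairs and 14.3 to 21.7 for control pairs. The gene and the lists were chosen with earlier results of these data known; 8 further symbols were added after the annotation was seen. Named genes are those of the inositol and glucose 6-phosphate lists, the nearest annotated genes, the 5 largest rises and 3 largest falls among called genes of like abundance, the genes next in rank, and the 5 nearest profiles; PLB1, SEC14, SFH5 and DPM1, the partners in the ratios and the larger risers were added after their values were seen. Alternatives covered scaling, filters, DESeq2 1.42.0, limma 3.58.1 on log2(FPKM + 1) and log2(FPKM + 0.1), a replicate block, the window of like abundance and the removal of each library.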

Additional observations from a re-analysis of the deposited data

How the results depend on the processing

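The log2 fold change of RINO2 kept its direction under each of 15 alternatives, between 2.28 and 2.43; it was 2.43 with total counts alone and with limma on log2(FPKM + 1) or log2(FPKM + 0.1), and 2.28 to 2.34 without any one library. Under 19 alternatives, 0 genes of like abundance rose as much. The number of these called higher was 34 with total counts alone (11.3%, against 9.50% of all tested genes in the same fit). It was 30 with DESeq2 (10% against 9.13%) and 33 with limma at either pseudocount (11% against 8.64 and 8.42%). Without any one library it was 5 to 34 (1.68 to 11.3%, against 2.78 to 14.4%). It was 10 of 150 genes (6.67%) with a 1.5-fold window and 39 of 757 (5.15%) with a 4-fold window. With a window on the mean of all 6 libraries it was 4 of 67 (5.97%). With a window on the control mean FPKM it was 19 of 342 (5.56%). In the edgeR fit with TMM scaling and all 6 libraries, which these windows share, 6.66% of all tested genes were called higher. Genes called changed numbered 348 to 2829 without any one library, against 1084. Called members of the inositol list numbered 0 to 2 of 12 without any one library, where 3.81 to 31.0% of all tested genes were called. Of the 10 neighbours, 3 were called with total counts alone, 1 with DESeq2, 1 with limma at either pseudocount and 0 to 3 without any one library. As a share of summed FPKM, RINO2 took 0.320% in metal-ion and 0.0572% in control libraries, and its median ranks by FPKM were 25 and 267, against 12 and 170 by count. The cause of these shifts was not tested, beyond the fewer libraries or other genes that an alternative holds. With the replicate number as a block, 1365 genes and 1 of the 10 neighbours were called. The deviations of same-numbered libraries correlated at 0.05, 0.21 and 0.12 for replicates 1, 2 and 3. Each metal-ion library correlated best with the control library of its own number. Control replicate 1 correlated slightly better with metal-ion replicate 3, at 0.06, than with metal-ion replicate 1. Whether same-numbered libraries were paired therefore cannot be told.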
